A study of Mus musculus with 29 samples.

Results

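Colon RNA of 29 mice in 9 groups was sequenced, and 10 transcripts were examined that were picked from these counts because they were present in some groups and missing, or several times lower, in others, and because some of them also differed between inflamed and control colons. They were found by matching the Ensembl identifiers of the count table to the symbols H2-Ea-ps, Ifi202b, Gm4858, Gm4864, Gm7901, Trim12a, Trim5, Pnp2, Gm8979 and Arl2bp, which gave 10 of 54532 genes listed. Since presence, absence and the difference with colitis are what they were chosen from, these values are given as a description and carry no test. All 10 passed the filter on low counts, which was a mean of at least 3 counts over the 29 mice.

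Per the labels, the WT_control mice (n = 3) were untreated Balb/C mice. The DSS group (n = 3) were Balb/C mice given 3% dextran sulphate sodium in the drinking water for 5 days and culled on day 10, and the DNBS group (n = 3) were Balb/C mice given 3 mg of dinitrobenzene sulphonic acid by the rectum. The IL10_blockade group (n = 4) were Balb/C mice given an IL10 blocking antibody, for which the protocol gives 750 µg of antibody to the IL-10 receptor and a cull at 4 weeks at the latest, whereas the study's methods speak of Il10-/- mice. The Rag2_control mice (n = 3) were untreated Balb/C Rag2-/- mice. The TRUC mice (n = 4) were Balb/C mice lacking both Tbx21 and Rag2, which develop colitis without treatment. The Rag1_control mice (n = 3) were untreated C57BL/6 Rag1-/- mice, the antiCD40 mice (n = 3) were C57BL/6 Rag1-/- mice 7 days after 50 µg of antibody to CD40, and the TCT mice (n = 3) were labelled C57BL/6 Rag1-/- and had received 500000 naive CD4+ T cells 6 to 8 weeks before. Mice without Rag1 or Rag2 make no mature T or B cells, so any T cells of the TCT mice should be ones they were given. The labels give no age or sex. Strain names differ between sources, since the study's methods put WT_control and DSS mice on C57BL/6 and the transfer protocol names Rag2-/- recipients.

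Libraries held 10725564 to 14977094 counts (median 12287039), and 3 counts, the most that a count of 0 allows, stood for 0.179 to 0.314 CPM (counts scaled to a common library size) on the TMM scale that adjusts for library composition. In chi-square per degree of freedom, the 33 pairs of libraries within groups lay at 3.42 or more, where sampling noise alone gives about 1, so none was a repeat of another, but nothing states that the mice came from separate litters or cages. Colon epithelium markers (Epcam, Cdh1, Vil1, Cdx2, Krt20, Car1, Slc26a3, Muc2) summed to between 4640 and 16759 CPM in every library. Summed B cell markers were 98.8 to 158 CPM in WT_control and 4.74 to 8.01 CPM in Rag2_control, and summed T cell markers were 90.1 to 166 CPM in TCT against 2.30 to 5.89 CPM in Rag2_control. RNA was taken from whole colon pieces, so fewer cells of a type and less RNA per cell cannot be told apart.

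Inbred mouse strains differ by deletions, duplications and retrocopies, and an inserted or lost copy shows in RNA as a gene that is on in all mice of one background and off in all of another. The best known case among the 10 is the alpha chain of the MHC class II molecule I-E: mice of the H-2b haplotype, C57BL/6 among them, lack its transcript through a promoter deletion, and the reference genome, which is C57BL/6, therefore lists it as the polymorphic pseudogene H2-Ea-ps, whereas BALB/c mice (H-2d) make it. Ifi202b, a DNA-binding protein of the interferon-activated 200 family, is likewise known for levels that depend on the strain. Trim12a and Trim5 belong to a family of cytoplasmic ubiquitin ligases that restrict retroviruses, Pnp2 is a copy of purine nucleoside phosphorylase, and Arl2bp encodes a protein that binds the small GTPases ARL2 and ARL3. Gm8979 is annotated as an unprocessed pseudogene in a cluster of large interferon-inducible GTPase genes, Gm4864 and Gm7901 as processed pseudogenes, which are intronless copies of a messenger RNA, and Gm4858 as a protein-coding gene.

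Several members are near-identical to another gene, so their reads can only be told apart where the bases differ. The following stretches of 60 bases from GENCODE M21 transcripts are shown for that reason, each pair with the differing bases in capitals.
Gm7901: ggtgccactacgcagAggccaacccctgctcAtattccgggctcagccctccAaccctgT
Phgdh: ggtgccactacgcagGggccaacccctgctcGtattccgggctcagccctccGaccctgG
Gm4864: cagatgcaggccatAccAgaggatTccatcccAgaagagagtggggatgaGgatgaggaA
Hdac1: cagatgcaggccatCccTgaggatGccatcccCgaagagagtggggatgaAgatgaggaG
Pnp2: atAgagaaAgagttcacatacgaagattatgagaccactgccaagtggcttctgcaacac
Pnp: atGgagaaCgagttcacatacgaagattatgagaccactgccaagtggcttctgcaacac
Trim12a: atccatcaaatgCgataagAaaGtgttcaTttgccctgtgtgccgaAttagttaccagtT
Trim5: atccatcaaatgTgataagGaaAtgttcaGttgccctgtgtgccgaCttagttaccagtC
Over its whole match, Gm7901 was 98.7% identical to Phgdh, Gm4864 was 94.6% identical to Hdac1, Pnp2 was 97.2% identical to Pnp and Trim12a was 97.1% identical to Trim5. The share of a member's 50-base windows found unchanged in another gene was 85.8% for Gm8979, 77.6% for Gm7901, 36.6% for Trim5, 28.5% for Pnp2, 17.4% for Gm4864, 15.1% for Gm4858 and 10.5% for Trim12a. It was 0 for H2-Ea-ps, Ifi202b and Arl2bp. Counts of the first group are therefore uncertain between the copies, and those of Gm8979 and Gm7901 most of all.

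The 10 transcripts fell into 3 patterns. H2-Ea-ps, Ifi202b, Gm4858, Gm4864 and Gm7901 were counted in all 13 libraries of Rag1_control, antiCD40, Rag2_control and TRUC and had at most 4 counts in each of the 16 libraries of WT_control, DSS, DNBS, IL10_blockade and TCT. Trim12a, Trim5, Pnp2 and Gm8979 had the reverse pattern, with 48 to 3802 counts in the 16 libraries and at most 3 in the 13. Arl2bp was counted everywhere but stood at 179 to 280 counts in Rag1_control, antiCD40 and Rag2_control and at 850 to 1343 counts in the other 6 groups. These 13 and 16 libraries are named by the pattern and are not groups of the study. They cut across the strain labels, because Rag2_control and TRUC are labelled Balb/C like WT_control, DSS, DNBS and IL10_blockade, and TCT is labelled C57BL/6 Rag1-/- like Rag1_control and antiCD40.

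**Figure D1:**
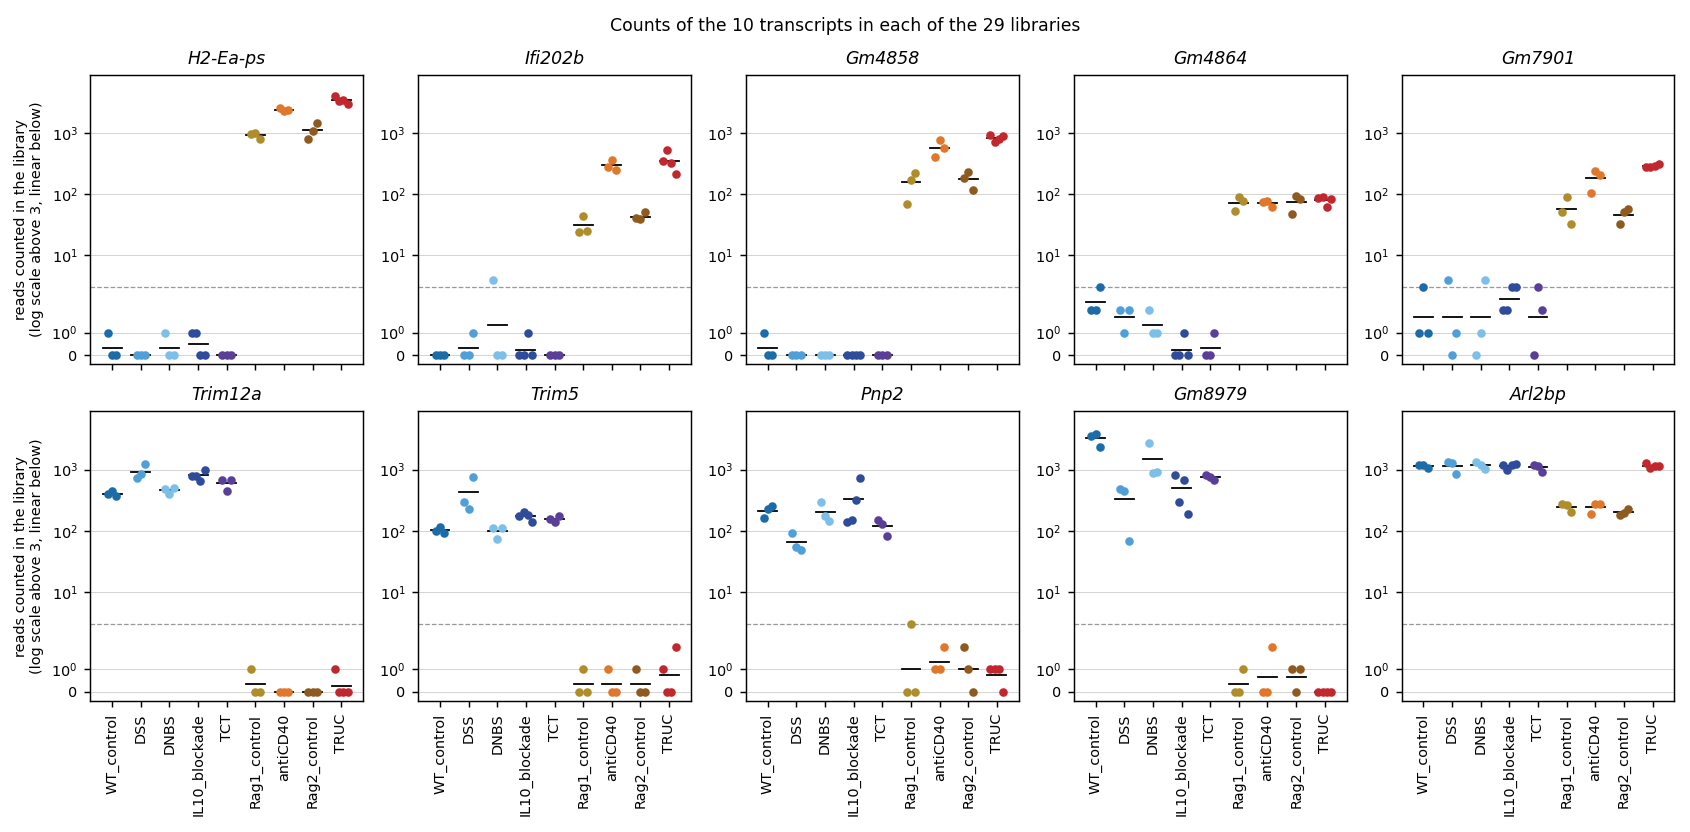
Reads counted for each of the 10 transcripts (y axis, log scale above 3 and linear below) in each of the 29 libraries, by group (x axis); each point is 1 mouse, the black line is the group mean and the dashed line marks 3 counts. The first 5 panels have points above 20 counts in Rag1_control, antiCD40, Rag2_control and TRUC alone, the next 4 panels have the reverse, and Arl2bp is lower in Rag1_control, antiCD40 and Rag2_control than in the other 6 groups.

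H2-Ea-ps (ENSMUSG00000036322, GRCm38 chr17:34341959-34344645, minus strand) presents extracellular antigen as the partner of the beta chain H2-Eb1. It had 784, 1074 and 1462 counts in Rag2_control mice 1, 2 and 4 and 3956, 3265, 3466 and 2981 counts in TRUC mice 2 to 5. It had 968, 1011 and 787 counts in Rag1_control mice 2 to 4 and 2512, 2262 and 2337 counts in antiCD40 mice 6 to 8. Each colitis group lay wholly above its control, while the 2 control groups overlapped. All 16 other libraries had 0 or 1 count. The libraries labelled Balb/C in WT_control, DSS, DNBS and IL10_blockade thus lacked a transcript that BALB/c mice are known to make, and the libraries labelled C57BL/6 in Rag1_control and antiCD40 held 787 to 2512 counts of a transcript that C57BL/6 mice are known to lack. The group means were 286 ± 31.2 CPM in TRUC (SD, n = 4), 87.3 ± 21.0 in Rag2_control (n = 3), 199 ± 34.4 in antiCD40 (n = 3) and 73.6 ± 5.43 in Rag1_control (n = 3).

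Ifi202b (ENSMUSG00000026535, GRCm38 chr1:173962568-173982744, minus strand) had 40, 39 and 50 counts in the Rag2_control mice and 350, 526, 322 and 212 in the TRUC mice. It had 24, 44 and 25 counts in the Rag1_control mice and 275, 361 and 248 in the antiCD40 mice. All 7 mice of the 2 colitis groups were above all 6 controls, and the 2 colitis groups overlapped each other. In the 16 other libraries it was at 0 apart from 1 count in DSS mouse 8, 4 in DNBS mouse 11 and 1 in IL10_blockade mouse 3. Mean levels were 29.8 ± 12.4 CPM in TRUC, 3.43 ± 0.407 in Rag2_control, 24.9 ± 6.63 in antiCD40 and 2.45 ± 0.696 in Rag1_control.

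Gm4858 (ENSMUSG00000096879, GRCm38 chr3:93068823-93075505, plus strand) had 182, 230 and 117 counts in the Rag2_control mice and 927, 702, 794 and 898 in the TRUC mice. It had 70, 173 and 221 counts in the Rag1_control mice and 406, 757 and 566 in the antiCD40 mice, so both colitis groups again lay above their controls. Its closest match, Tdpoz4, was 93.8% identical over 40.0% of its length and had 0 counts in every library. WT_control mouse 1 had 1 count, and the other 15 of the 16 libraries had 0.

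Gm7901 (ENSMUSG00000101431, GRCm38 chr8:75711600-75713196, minus strand) lies within Iqcm, which is on the opposite strand and had 1 count over all libraries. It had 33, 50 and 56 counts in the Rag2_control mice and 282, 279, 286 and 313 in the TRUC mice. It had 51, 89 and 32 counts in the Rag1_control mice and 103, 238 and 203 in the antiCD40 mice, with no overlap in either comparison and at most 4 counts elsewhere.

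Gm4864 (ENSMUSG00000112003, GRCm38 chr12:77623549-77625009, minus strand) was the one of these 5 whose colitis and control mice overlapped in both comparisons. It had 48, 92 and 84 counts in the Rag2_control mice and 85, 89, 61 and 82 in the TRUC mice. It had 53, 88 and 77 counts in the Rag1_control mice and 74, 76 and 61 in the antiCD40 mice. The group means lay between 5.80 and 6.61 CPM, and the fitted difference between TRUC and Rag2_control was 0.17 on the log2 scale with a standard error of 0.26.

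Fitted log2 differences of TRUC from Rag2_control were 3.12 for Ifi202b (SE 0.38), 2.73 for Gm7901 (SE 0.38), 2.29 for Gm4858 (SE 0.35) and 1.71 for H2-Ea-ps (SE 0.18). Those of antiCD40 from Rag1_control were 3.33 for Ifi202b (SE 0.41), 1.94 for Gm4858 (SE 0.36), 1.72 for Gm7901 (SE 0.38) and 1.44 for H2-Ea-ps (SE 0.19). In TRUC, 5 of the 10 transcripts, these 4 and Arl2bp, were higher than in Rag2_control with no overlap between mice, where 28.8% of the 18616 genes tested were. In antiCD40, 4 of the 10 were higher than in Rag1_control with no overlap, where 19.2% of all genes were. The transcripts were chosen from these contrasts, so nothing is read from these counts.

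**Figure D2:**
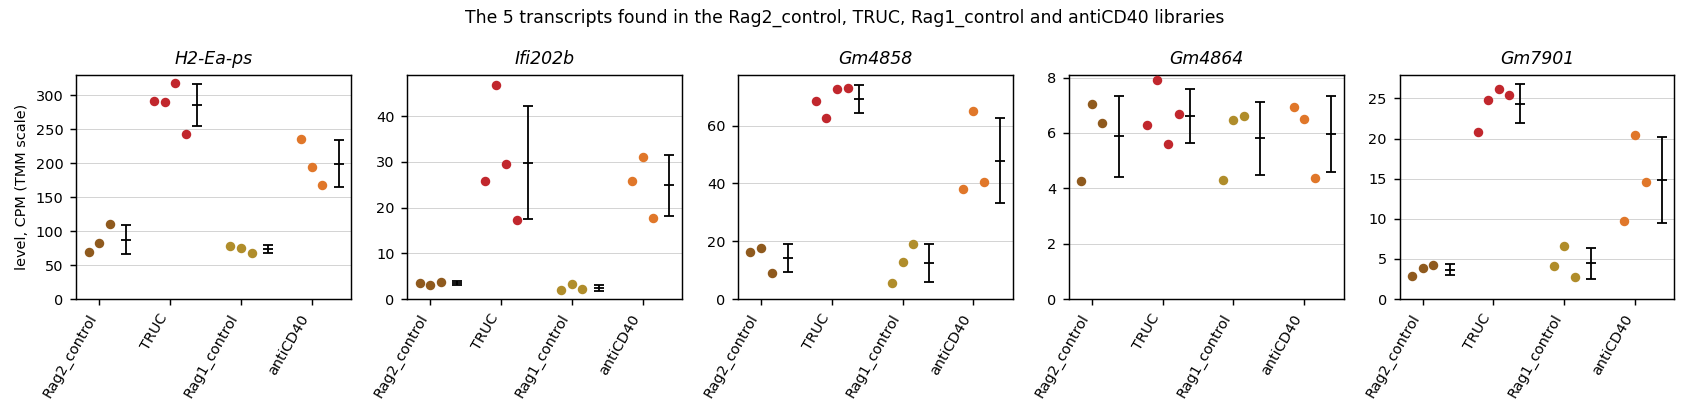
Levels in CPM (y axis) of the 5 transcripts counted in Rag2_control, TRUC, Rag1_control and antiCD40 (x axis); points are mice and the black bar with whiskers is the mean and SD. H2-Ea-ps, Ifi202b, Gm4858 and Gm7901 are higher in TRUC and antiCD40 than in their controls in every mouse, and Gm4864 overlaps across all 4 groups.

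The level of Gm7901 moved with that of its copy Phgdh, the first enzyme of serine synthesis. Phgdh had 243 to 397 counts in Rag2_control and 1737 to 2041 in TRUC, and was higher in TRUC by a fitted 2.59 on the log2 scale (SE 0.38). It was also higher in antiCD40 than in Rag1_control by 1.50 (SE 0.38). Phgdh was picked as a copy after values were seen, and reads of the pair may be counted on either gene, so no test is given. Gm7901 took 11.2 to 13.6% of the counts of the pair in Rag2_control, 12.1 to 14.7% in TRUC, 9.88 to 13.8% in Rag1_control and 13.1 to 15.2% in antiCD40. In the 16 other libraries it took at most 1.21%, although Phgdh itself was counted there, with 189 to 244 counts in WT_control.

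Gm4864 matched Hdac1, a histone deacetylase, and took 3.88 to 5.99% of the counts of that pair in the 13 libraries and at most 0.205% in the 16. Hdac1 had between 1183 and 2496 counts in all 29 libraries, so the parent gene was present where the copy was not. The plot of members against their copies shows both pairs.

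**Figure D3:**
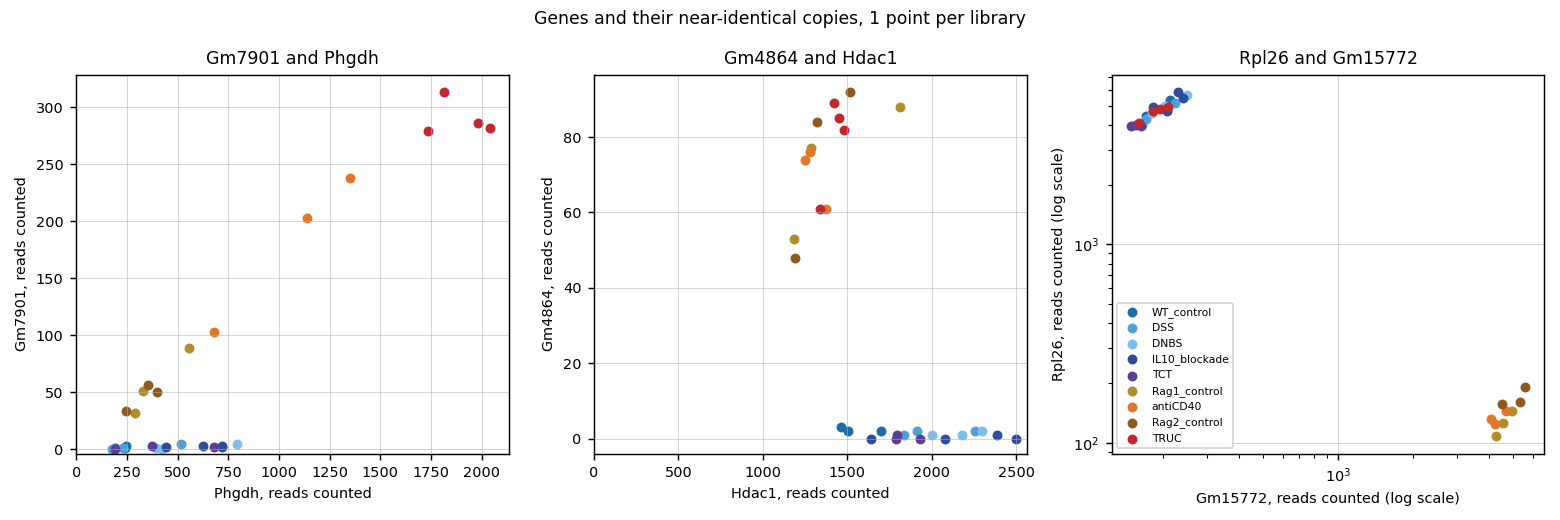
Reads counted for a gene (y axis) against those of its near-identical copy (x axis), 1 point per library, coloured by group; the third panel has log axes. Gm7901 lies on a line with Phgdh in Rag1_control, antiCD40, Rag2_control and TRUC and near 0 elsewhere, Gm4864 is above 40 counts in those groups alone at like counts of Hdac1, and Rpl26 and Gm15772 trade places between Rag1_control, antiCD40 and Rag2_control and the other 6 groups.

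Trim12a (ENSMUSG00000066258, GRCm38 chr7:104299894-104315466, minus strand) had 403, 446 and 373 counts in WT_control mice 1, 2 and 4. It had 733, 839 and 1231 counts in DSS mice 5, 6 and 8, and 802, 802, 642 and 1005 in IL10_blockade mice 1 to 4. It had 486, 396 and 511 counts in DNBS mice 11, 14 and 16, and 672, 457 and 669 in TCT mice 1, 3 and 5. In CPM the DSS (67.3 ± 27.5), IL10_blockade (77.8 ± 21.6) and TCT (53.2 ± 12.4) mice all lay above the WT_control mice (30.3 ± 0.551), and DNBS mice (34.4 ± 7.97) overlapped them. An antisense gene, Gm15133, overlaps 448 bases of it and had 288 counts over all libraries. Whether counting used strand is not stated, so reads in that stretch cannot be told apart.

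Trim5 (ENSMUSG00000060441, GRCm38 chr7:104263386-104288094, minus strand) had 101, 116 and 94 counts in the WT_control mice and 296, 230 and 749 in the DSS mice. It had 174, 207, 182 and 142 counts in the IL10_blockade mice, 112, 74 and 112 in the DNBS mice and 156, 138 and 172 in the TCT mice. DSS, IL10_blockade and TCT mice lay above WT_control in CPM, and DNBS mice overlapped it. The log2 difference of DSS from WT_control was 2.02 (SE 0.38) and was 1.15 without DSS mouse 8. The log2 correlation of Trim12a with Trim5 over the 29 mice was 0.990, both being at most 2 counts in the same 13 libraries.

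Trim12a and Trim5 start 36.5 kb apart in one cluster, and their start regions are alike. The following are the RefSeq promoter windows (GRCm38.p6, 250 bases before to 50 after the start, minus strand), in which capitals mark a match to GAAANNGAAA, the core of an interferon-stimulated response element, here read on the reverse strand. They are shown because the 2 genes shared their pattern over the groups.
Trim12a, chr7:104315446-104315745: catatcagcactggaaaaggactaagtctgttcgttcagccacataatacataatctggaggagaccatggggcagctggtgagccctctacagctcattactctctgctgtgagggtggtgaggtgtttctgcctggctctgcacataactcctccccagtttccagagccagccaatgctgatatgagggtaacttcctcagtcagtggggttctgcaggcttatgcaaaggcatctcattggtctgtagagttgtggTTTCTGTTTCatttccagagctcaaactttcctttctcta
Trim5, chr7:104288057-104288356: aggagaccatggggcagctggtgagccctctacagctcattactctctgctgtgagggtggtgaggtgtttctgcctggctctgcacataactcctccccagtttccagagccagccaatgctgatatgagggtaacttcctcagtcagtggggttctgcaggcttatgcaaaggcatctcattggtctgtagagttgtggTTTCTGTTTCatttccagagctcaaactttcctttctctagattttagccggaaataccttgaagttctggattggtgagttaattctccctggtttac
These windows share a stretch of 241 identical bases. GAAANNGAAA, searched on both strands, was found in 3.44% of 32851 promoter windows of this length. The Ifi202b window (chr1:173982795-173983094, minus strand), shown as the promoter of a member that was several times higher in colitis, had no such match but had 1 to TTCNNNGAA, the core of a site for STAT and related factors, in capitals.
Ifi202b: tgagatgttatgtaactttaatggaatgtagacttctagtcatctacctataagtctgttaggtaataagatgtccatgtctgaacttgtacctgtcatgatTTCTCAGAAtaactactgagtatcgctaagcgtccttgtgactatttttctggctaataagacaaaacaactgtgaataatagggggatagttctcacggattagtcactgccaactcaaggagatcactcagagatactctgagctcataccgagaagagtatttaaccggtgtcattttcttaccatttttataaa
TTCNNNGAA was found in 8.30% of all promoter windows. All windows shown are of the reference genome, which is C57BL/6. Whether the mice whose libraries counted Ifi202b carry this sequence was not examined, so the match is not tied to its level in colitis. RefSeq windows were found for 4 of the 10 members, and that of the fourth, Arl2bp, which was also higher in TRUC, held neither motif and is not shown. The Arl2bp window (chr8:94666841-94667140, plus strand) lies inside the annotated gene, so the bases before the gene's annotated start were not searched.

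Pnp2 (ENSMUSG00000068417, GRCm38 chr14:50955992-50964749, plus strand) lies within the annotated span of Pnp on the same strand. It had 161, 225 and 256 counts in the WT_control mice and 93, 55 and 48 in the DSS mice, which were the lowest of the 16 libraries after scaling. It had 293, 176 and 145 counts in the DNBS mice and 151, 130 and 82 in the TCT mice, both overlapping WT_control. It had 140, 152, 323 and 725 counts in the IL10_blockade mice, and the log2 difference of this group from WT_control fell from 1.03 to 0.19 without mouse 4. The share of the pair's counts on Pnp2 was 45.0 to 54.0% in WT_control, 7.62 to 22.5% in DSS, 27.6 to 49.4% in DNBS, 27.1 to 57.2% in IL10_blockade and 24.6 to 39.5% in TCT, and at most 1.81% in the 13 libraries. The log2 difference of DSS from WT_control was -1.83 (SE 0.48).

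Gm8979 (ENSMUSG00000095649, GRCm38 chr7:106076751-106084046, minus strand) was lower, in CPM, in every mouse of the DSS, DNBS, IL10_blockade and TCT groups than in any WT_control mouse. It had 3601, 3802 and 2370 counts in the WT_control mice. It had 477, 444 and 68 counts in the DSS mice, 832, 296, 673 and 189 in the IL10_blockade mice and 809, 758 and 674 in the TCT mice. It had 2729, 888 and 934 counts in the DNBS mice, of which mouse 11 lay nearest to the controls. The log2 differences from WT_control were -3.45 in DSS (SE 0.49), -2.43 in IL10_blockade (SE 0.43), -1.87 in TCT (SE 0.46) and -1.21 in DNBS (SE 0.45).

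Its copy Gm8989, 98.9% identical and not a member, was counted in all 29 libraries and was lower in several colitis groups too. Gm8989 had 151 to 282 counts in WT_control and 11 to 46 in DSS, a log2 difference of -3.06 (SE 0.46). It had 124 to 229 counts in Rag2_control and 5 to 12 in TRUC, a difference of -4.29 (SE 0.47, adjusted p = 5.3e-07, edgeR quasi-likelihood test with Benjamini-Hochberg adjustment). TRUC thus had less Gm8989 than its control in libraries without Gm8979. In DSS, reads of Gm8979 may be counted on Gm8989, so the lower Gm8989 there is no result apart from that of Gm8979. Gm8979 took 93.1 to 94.0% of the counts of the pair in WT_control, and reads of the 2 genes cannot be separated in the counts.

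**Figure D4:**
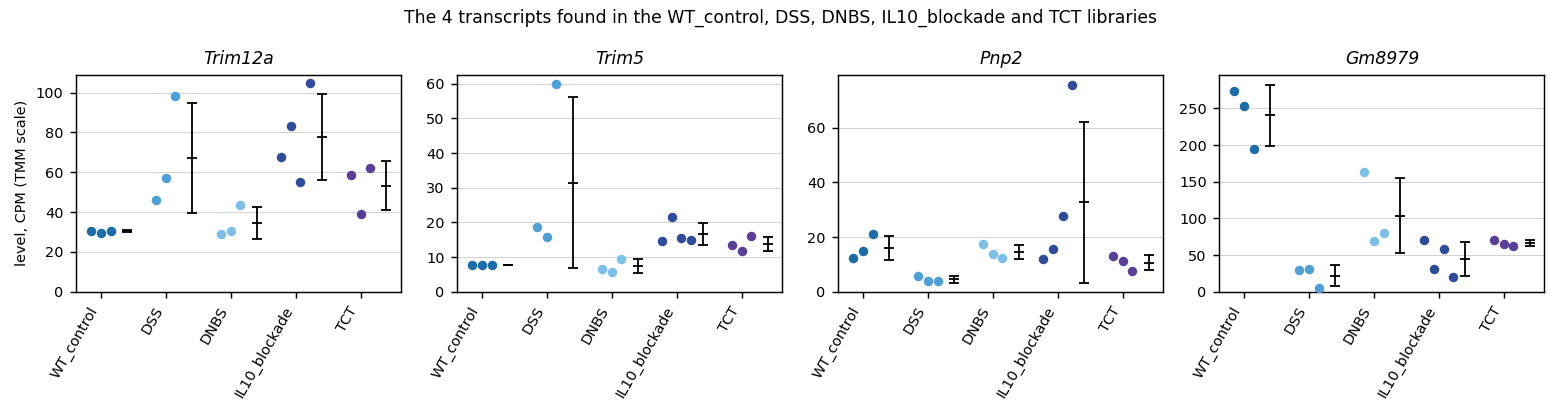
Levels in CPM (y axis) of the 4 transcripts counted in WT_control, DSS, DNBS, IL10_blockade and TCT (x axis); points are mice and the black bar with whiskers is the mean and SD. Trim12a and Trim5 are higher in every DSS, IL10_blockade and TCT mouse than in WT_control, Pnp2 is lower in every DSS mouse, and Gm8979 is lower than WT_control in every mouse of the 4 colitis groups.

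Arl2bp (ENSMUSG00000031776, GRCm38 chr8:94666600-94674425, plus strand) had 179, 195 and 232 counts in the Rag2_control mice and 1284, 1060, 1141 and 1162 in the TRUC mice, a log2 difference of 2.59 (SE 0.13). It had 280, 261 and 202 counts in the Rag1_control mice and 189, 280 and 274 in the antiCD40 mice, which overlapped. TCT mice had 1194, 1136 and 932 counts, a log2 difference from Rag1_control of 2.28 (SE 0.13). WT_control mice had 1206, 1211 and 1074 counts, DSS mice 1343, 1281 and 850, and DNBS mice 1342, 1180 and 1044. IL10_blockade mice had 1191, 986, 1216 and 1229 counts, and their mean of 109 ± 13.1 CPM was the highest, above 86.9 ± 5.72 CPM in WT_control by 0.33 on the log2 scale (SE 0.12). Of the 10, this was the one for which TRUC sided with WT_control and not with Rag2_control.

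The ribosomal protein gene Rpl26 had the pattern most like that of Arl2bp (Pearson r of log2 CPM over the 29 mice, 0.985). Rpl26 had 157 to 192 counts in Rag2_control, 4096 to 4943 in TRUC and 4442 to 5314 in WT_control. The pseudogene Gm15772, with which Rpl26 shares 19.3% of its 50-base windows, had 4520 to 5576 counts in Rag2_control, 160 to 208 in TRUC and 171 to 213 in WT_control. Where one gene was high the other was low, by a fitted log2 difference of 4.84 (SE 0.15) for Rpl26 and -4.72 (SE 0.13) for Gm15772 in TRUC against Rag2_control. Both were picked for this pattern, so no test is given.

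The 3 genes most like each of the other members over the 29 mice were processed pseudogenes in most cases for the first 5 members and in none for the rest. H2-Ea-ps was most like Rps2-ps10 (r = 0.994), Gm3375 (0.994) and Gm8730 (0.992), Gm4864 was most like Gm9825 (0.991), and Gm4858 was most like Eno1b (0.988). Ifi202b was most like Ifi44l (0.990), an interferon-inducible gene with no shared window that had 0 counts in the 16 libraries and 12 to 276 in the 13. Gm7901 was most like Gm9347 (0.984). Of the genes most like the first 5 members, 7 of 11 were processed pseudogenes (63.6%), against 968 of 18616 tested (5.20%). Trim12a was most like Rps18 (0.993), Trim5 like Btnl6 (0.977), Pnp2 like H2-Q2 (0.981) and Gm8979 like Raet1e (0.971), and 0 of the 12 genes most like these 4 and Arl2bp were processed pseudogenes. These correlations are set by which libraries hold a gene, and the libraries also share their group. Rank correlation kept 4 of the 30 most like genes, and the share of pseudogenes among those it picks was not counted. Nothing is therefore read from these shares.

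Among the genes like a member, Gm8730 was higher in Rag2_control than in WT_control, while a gene that shares windows with it was lower. Gm8730 had 75 to 90 counts in WT_control and 7869 to 9416 in Rag2_control, while Rplp0, which holds 39.4% of the 50-base windows of Gm8730, had 18253 to 20882 and 7608 to 9260. Rpl29 had 4844 to 6088 counts in WT_control and 81 to 113 in Rag2_control, and Rps18 had 6435 to 7681 and 523 to 615. These 2 ribosomal protein genes were thus listed in Rag2_control at a small share of their WT_control level.

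Outside the 10, genes with the same presence and absence were looked for after the values were seen. At most 4 counts in each of the 16 libraries and at least 20 in each of the 13 were found for 13 genes on 9 chromosomes, namely 5 members and Mptx2, Gm11702, Hist1h2al, AC154457.3, Gm3650, Gm14165, Gm42743 and Gm18860. The reverse was found for 9 genes on 6 chromosomes, 4 members and Raet1e, Gm43305, D730005E14Rik, Rpl21-ps8 and Gm10709. Raet1e, a ligand of the activating receptor NKG2D, had 58 to 259 counts where it was present.

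Genes known to differ between C57BL/6 and BALB/c were checked as well. Of 6 listed, 5 were tested, and not all are named here. In WT_control 1 was higher than in Rag2_control and 2 were lower (4.86% and 3.25% of all genes). Pla2g2a and Gbp2b, described next, had lower counts in WT_control, so they do not stand for the whole list. Pla2g2a, a secreted phospholipase of Paneth cells that carries a frameshift in C57BL/6 and is intact in BALB/c, had 10 to 12 counts in WT_control and 1182 to 2833 in Rag2_control, a log2 difference of -7.46 for WT_control (SE 0.69, edgeR adjusted p = 2.5e-08). It had 737 to 1531 counts in Rag1_control. Pla2g2a was also higher in TRUC than in Rag2_control by 3.34 (SE 0.50, edgeR adjusted p = 2.08e-05) and had 460 to 1369 counts in DSS. Gbp2b, an interferon-inducible GTPase, had 9 to 20 counts in WT_control and 756 to 1368 in Rag2_control. It had 465 to 1209 counts in Rag1_control, 2182 to 11050 in TRUC and 5297 to 7880 in antiCD40. It was also counted in IL10_blockade (169 to 199), TCT (105 to 511), DSS (11 to 456) and DNBS (2 to 235). Nnt, which carries a deletion of several exons in C57BL/6J, had 1 to 8 counts in every library.

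Genotype genes were read beside these. Rag2 had 0 or 1 count in each of the 16 libraries and more in the libraries labelled as lacking it, with 15 to 25 in Rag2_control and 57 to 94 in TRUC, beside 6 to 20 in Rag1_control and 48 to 99 in antiCD40. Rag1 had 20 to 33 counts in TCT and at most 4 elsewhere. Tbx21 had 26 to 52 counts in TRUC and 1 to 7 in Rag2_control. Counts per gene do not show whether a counted transcript is intact, so these values check no label.

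Most genes did not differ from WT_control as the members did in Rag1_control and Rag2_control. Between Rag1_control and Rag2_control themselves, every member overlapped. Between Rag1_control and Rag2_control, which differ in labelled strain, 0.0698% of genes were higher and 0.0537% lower at an edgeR adjusted p under 0.05, and 0 of 54 relatives of the members passed (2 at an unadjusted p under 0.05, 2 by DESeq2). Upper quartile scaling gave 5 genes higher and 9 lower in place of 13 and 10. A fit of these 2 groups alone gave 222 higher and 217 lower, and DESeq2 gave 571 and 462. Between WT_control and Rag2_control, both labelled Balb/C, 4.86% of genes were higher in WT_control and 3.25% lower. Between WT_control and Rag1_control 6.18% were higher and 4.77% lower, which under upper quartile scaling became 1462 higher and 621 lower in place of 1150 and 888. Strain, Rag genotype and lymphocytes cannot be told apart in the comparisons with WT_control.

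The class II relatives of H2-Ea-ps were higher in most colitis groups whether or not H2-Ea-ps itself was present. Of 11 tested, 8 were higher in TRUC than in Rag2_control and 0 lower, with a median log2 difference of 2.21, where 22.4% of all genes were higher and 23.4% lower. The partner chain H2-Eb1 rose by 1.95 (SE 0.32, edgeR adjusted p = 5.33e-05), the invariant chain Cd74 by 2.68 (SE 0.41, edgeR adjusted p = 2.3e-05) and the class II transactivator Ciita by 3.13 (SE 0.47, edgeR adjusted p = 1.94e-05). In antiCD40 7 were higher than in Rag1_control and 0 lower, with a median of 2.31, where 10.9% of all genes were higher and 10.7% lower. H2-Eb1 rose there by 1.51 (SE 0.33, edgeR adjusted p = 0.00249).

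In the groups without H2-Ea-ps, 8 of these 11 were higher in DSS and 0 lower (17.7% of all genes higher, 16.3% lower), and 7 were higher in IL10_blockade and 0 lower (27.2% and 26.1%). Upper quartile scaling changed the split of all calls in IL10_blockade from 5058 higher and 4858 lower to 3854 and 6187. In TCT, 9 were higher than in Rag1_control (16.1% of all genes higher, 14% lower), and 7 were higher and 1 lower than in WT_control (16.9% and 13.8%). In DNBS 0 of 11 passed by edgeR, 5 were at an unadjusted p under 0.05 and 0 passed by DESeq2, where 3.95% of all genes were higher and 2.21% lower. Upper quartile scaling gave 542 higher and 520 lower calls in DNBS in place of 736 and 412, and 2429 and 3385 in TCT against WT_control in place of 3155 and 2570.

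Between the untreated groups, 7 of the 11 were higher in WT_control than in Rag2_control and 0 lower (4.86% and 3.25% of all genes). Among them H2-Ob, a chain of the B cell modulator of class II loading, was at 3.68 (SE 0.64, edgeR adjusted p = 0.00034), beside the higher sum of B cell markers in WT_control.

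Myeloid markers moved with the class II genes in TRUC, antiCD40, DSS, IL10_blockade and TCT but not in every comparison. Their sum was 235 to 355 CPM in Rag2_control and 1310 to 1830 in TRUC, 273 to 304 in Rag1_control and 475 to 896 in antiCD40, and 329 to 386 in WT_control and 991 to 3053 in DSS. It was 896 to 1276 CPM in IL10_blockade and 1290 to 2202 in TCT. The sum was 518 to 620 CPM in DNBS, above WT_control, where 0 of the 11 class II genes passed by edgeR. WT_control and Rag2_control overlapped in this sum, while 7 of the 11 class II genes were higher in WT_control. The part of myeloid cells in the level of H2-Ea-ps, Ifi202b or the class II genes was not tested.

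Relatives of Ifi202b in the interferon-activated 200 family were often higher in colitis. Of 13 tested, 7 were higher and 0 lower in TRUC, where 22.4% of all genes were higher, among them Ifi204 by 2.68 (SE 0.64, edgeR adjusted p = 0.00162) and Ifi209 by 2.95 (SE 0.75, edgeR adjusted p = 0.00283). In DSS, where 17.7% of all genes were higher, 12 were higher and 1, the DNA sensor Aim2, was lower by 0.68 on the log2 scale (SE 0.15, edgeR adjusted p = 0.00103). In TCT against Rag1_control 10 were higher (16.1% of all genes), in IL10_blockade 6 (27.2%) and in antiCD40 2 (10.9%), with 0 lower in each. The 2 of 13 in antiCD40 are near the share of all genes. Against WT_control, 7 were higher in TCT and 0 lower (16.9% and 13.8% of all genes). In untreated WT_control, 5 were higher than in Rag1_control and 0 lower (6.18% and 4.77%). Colitis and background thus cannot be told apart in TCT against Rag1_control. In DNBS 0 passed, 4 were at an unadjusted p under 0.05 and 3 passed by DESeq2. Between the untreated groups, 4 were higher in WT_control than in Rag2_control and 0 lower (4.86% and 3.25% of all genes), the opposite direction to that of Ifi202b. These 4 were Ifi208, Ifi209, Ifi213 and Mndal, and Ifi209 differed by 3.58 (SE 0.76, edgeR adjusted p = 0.00253).

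The 11 TRIM relatives of Trim12a and Trim5, most of them in the same cluster, split in both directions. In DSS 6 were higher and 1 lower (17.7% and 16.3% of all genes), with Trim30a up by 3.06 (SE 0.64, edgeR adjusted p = 0.000791) and Trim12c, the nearest copy of Trim5, up by 0.81 (SE 0.25, edgeR adjusted p = 0.0137). In IL10_blockade 4 were higher and 3 lower (27.2% and 26.1% of all genes), in TRUC 3 and 0 (22.4% and 23.4%), and in TCT against WT_control 2 and 3 (16.9% and 13.8%), so the higher counts in these 3 comparisons were near the shares of all genes. Between WT_control and Rag2_control, Trim30d was higher in WT_control by 3.76 (SE 0.48, edgeR adjusted p = 4.52e-06) and Trim30e-ps1 by 6.92 (SE 1.23, edgeR adjusted p = 0.00154), and Trim34b was lower by 3.11 on the log2 scale (SE 0.34, edgeR adjusted p = 3.96e-07). Trim34b had 69 to 135 counts in the 13 libraries and 1 to 13 in the 16, and Trim30d had 196 to 1291 in the 16 and 13 to 48 in the 13. They start 29.6 and 170.1 kb from the start of Trim12a, and neither stayed at or under 4 counts in every library where it was lower.

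**Figure D5:**
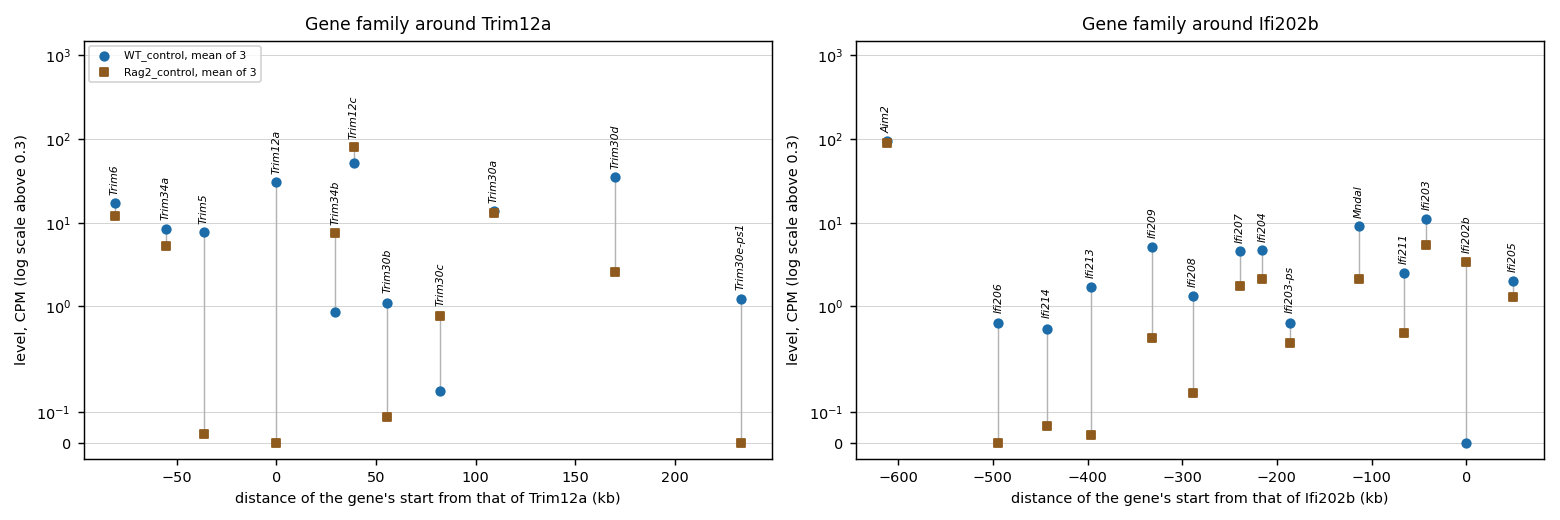
Mean levels in CPM (y axis, log scale above 0.3) in WT_control and Rag2_control (3 mice each) of the genes around Trim12a (left) and Ifi202b (right), by distance of each gene's start from that of the member in kb (x axis). Trim12a, Trim5, Trim30d and Trim30e-ps1 are high in WT_control where Trim34b is low, and Ifi202b is the one gene of its cluster that is present in Rag2_control and at 0 in WT_control.

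Among 6 purine salvage enzymes that act beside Pnp2, all 6 were higher in TRUC and in IL10_blockade and 0 were lower, where 22.4% and 27.2% of all genes were higher. The parent gene Pnp rose by 0.78 in TRUC (SE 0.28, edgeR adjusted p = 0.0253) and by 1.34 in IL10_blockade (SE 0.28, edgeR adjusted p = 0.000374), and Xdh, which makes uric acid, rose by 2.34 in TRUC (SE 0.43, edgeR adjusted p = 0.000157). In IL10_blockade and the other groups that hold Pnp2, reads of Pnp2 may be counted on Pnp. The level of Pnp there is thus not separate from that of Pnp2. In DSS, where Pnp2 was lower in every mouse, 2 were higher (Gda and Xdh) and 0 lower (17.7% and 16.3% of all genes). In DNBS 2 were higher (3.95% of all genes), and in TCT 6 against Rag1_control (16.1%) and 4 against WT_control (16.9%).

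Of 8 partners of Arl2bp, 2 were higher and 1 lower in TRUC, Arl3 by -0.79 (SE 0.18, edgeR adjusted p = 0.00103), a small difference beside the 2.59 of Arl2bp itself. These counts are near or below the shares of all genes, 22.4% higher and 23.4% lower. Between WT_control and Rag2_control, where Arl2bp differed by 2.43 (SE 0.13), 0 of the 8 passed by edgeR, at an unadjusted p under 0.05, or by DESeq2. Of all genes, 4.86% were higher there and 3.25% lower, so 0 of 8 is near those shares. Of 5 large inducible GTPase genes related to Gm8979, 3 were higher and 1 lower in TRUC, in antiCD40 and in DSS (22.4%, 10.9% and 17.7% of all genes higher), and the 1 lower was Gm8989 each time. In DSS its reads cannot be separated from those of Gm8979. Gm4070 of this family rose by 5.45 in TRUC (SE 0.89, edgeR adjusted p = 4.69e-05).

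Over all 54 relatives tested, 29 were higher and 2 lower in TRUC (22.4% and 23.4% of all genes) and 17 and 1 in antiCD40 (10.9% and 10.7%). In DSS 33 were higher and 5 lower (17.7% and 16.3%), and in IL10_blockade 26 and 5 (27.2% and 26.1%). In TCT against Rag1_control 35 were higher and 3 lower (16.1% and 14%). Against WT_control, TCT had 23 higher and 6 lower (16.9% and 13.8%). Untreated WT_control had 20 higher and 2 lower than Rag1_control (6.18% and 4.77%). In DNBS 2 were higher and 0 lower by edgeR (3.95% and 2.21%), 18 were at an unadjusted p under 0.05, and 6 were higher and 1 lower by DESeq2. The relatives were listed with the members' values known, so these counts are not independent of them.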

How the data were processed

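RNA from colon segments of 29 mice (poly(A) selection, random-hexamer cDNA) was sequenced. The authors deposited raw counts per gene, whole numbers with no normalization, and the submitters' processing notes name Trimmomatic, HISAT2, HTSeq and GRCm38, with versions and strand setting not given in the sources used here. The 92 spike-in rows held no reads and were dropped. No column of values was left unused. Reads that match 2 genes equally are handled by the counter, so counts of near-identical copies depend on its setting.

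Samples were grouped by GEO's labels. Counts were analysed with edgeR 4.0.16 (limma 3.58.1) in R 4.3.3. Genes with a mean of at least 3 counts over the 29 mice (18616) were scaled by TMM and fitted in 1 quasi-likelihood model of the 9 groups without covariates, and p-values were adjusted by Benjamini-Hochberg across those genes (threshold 0.05). Members have no test, since they were chosen on these values. The members and gene lists were chosen with earlier results of these data known, and the copies, the genes of the copy pairs and the genes sharing the presence pattern were picked after values were seen. Named genes are the members, genes of the lists and, for each member, the 3 genes of highest Pearson correlation of log2 CPM (prior count 2). Symbols were found for 54409 of 54532 identifiers, and positions are those of GENCODE M21. Copies were searched with blastn 2.17.0 and by 50-base windows, and promoters are RefSeq's for GRCm38.p6. Tables were handled with Python 3.11.15. On simulated counts with 200 of 18616 genes changed 4-fold, the fit recovered 92.5% in TRUC against Rag2_control, with 6 others called, and 94.5% in IL10_blockade against WT_control, with 8 others. The changed genes were drawn from those with higher counts, and all other genes were alike in every group. The simulation thus does not cover genes of low count or comparisons with as many changes as these. Alternatives were DESeq2 1.42.0, size factors, upper quartile scaling, no filter, fits of 2 groups, another control, a block on replicate number and leaving out each mouse. The edgeR p-values set a difference between groups against the spread between these mice, as estimated in 1 model of the 9 groups.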

Additional observations from a re-analysis of the deposited data

Results flagged for a closer look

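In 11 cases a member was present in a group of 4 mice, and these were checked for a mouse apart from the rest, where chance picks out about 1 in 20. Of these, 3 were picked out by Dixon's test of the gap to the nearest mouse. Arl2bp in IL10_blockade had its highest level, 129 CPM, in mouse 4. Arl2bp in TRUC had its highest level, 105 CPM, in mouse 4. Trim5 in IL10_blockade had its highest level, 21.5 CPM, in mouse 2.

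Some members differed from control in opposite directions in different models, with every mouse of each group on its side, and these differences between models were not tested. H2-Ea-ps was higher than in its control by 198 CPM in TRUC and by 126 CPM in antiCD40, while TCT minus Rag1_control was -73.6 CPM, since TCT lacked the transcript. The same held for Ifi202b (26.4 CPM in TRUC, 22.4 in antiCD40 and -2.45 in TCT), Gm4858 (55.0, 35.4 and -12.5 CPM) and Gm7901 (20.7, 10.4 and -4.33 CPM). Gm8979 was below WT_control by -219 CPM in DSS, -137 in DNBS and -196 in IL10_blockade, and TCT was above Rag1_control by 65.9 CPM. Pnp2 differed by -11.6 CPM in DSS and by 10.6 CPM in TCT against Rag1_control. The TCT values compare libraries that hold or lack the transcript, so the transfer of T cells and the background of the mice cannot be told apart in them.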

How the results depend on the processing

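The counts that show a member as present or absent do not depend on scaling. Replicate numbers did not pair the mice (correlations of same-numbered mice -0.081 to 0.098), so the block on them is given only here. The genes called numbered 1148 in DNBS against WT_control, and 624 with 2 groups fitted alone and 1877 with DESeq2. For Rag1_control against Rag2_control 23 were called, and 14 with upper quartile scaling, 10 without a filter, 439 with 2 groups, 1033 with DESeq2, 146 with the replicate block and 4 for the same mice without it. For WT_control against Rag2_control 1510 were called, and 3708 with 2 groups, 3418 with DESeq2, 3340 with the replicate block and 3708 for the same mice without it. For WT_control against Rag1_control 2038 were called, and 3662, 3511 and 3285 with 2 groups, DESeq2 and the replicate block, and 1939 for the same mice without it. The block gave 7523 genes in TRUC and 7556 in IL10_blockade. Of the relatives, 2 were called in DNBS, and 1 with 2 groups and 7 with DESeq2. Those for Rag1_control against Rag2_control were 0, and 1 and 2. For WT_control against Rag2_control they were 18, and 34 with 2 groups, 32 with DESeq2, 35 with the replicate block and 34 without it, and for WT_control against Rag1_control 22, and 35, 34 and 37, with 31 for the same mice without the block. With the block, the log2 difference of Gm7901 between Rag1_control and Rag2_control turned from 0.29 to -0.24 (-0.22 in the same mice without it), and that of Gm4864 in TRUC from 0.17 to -0.17 (-0.16). Rank correlation kept 4 of the 30 most like genes. Against the other control, 5725 genes were called in TCT against WT_control and 4503 in antiCD40 against Rag2_control. Upper quartile scaling moved the log2 differences of the listed genes by a median of -0.17 in IL10_blockade, -0.11 in TRUC and -0.11 in TCT against WT_control. The causes were not tested.

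Leaving out 1 mouse at a time gave 6906 to 8045 genes in TRUC, 3841 to 6284 in DSS (3841 without DSS mouse 8), 195 to 2346 in DNBS (195, 252 and 573 without WT_control mouse 1, 2 or 4, and 2346, 319 and 437 without DNBS mouse 11, 14 or 16), 8361 to 9624 in IL10_blockade, 4081 to 5796 in TCT and 1749 to 4752 in antiCD40 (2308 without Rag1_control mouse 3 and 1749 without antiCD40 mouse 7). It gave 6 to 145 for Rag1_control against Rag2_control (145, 7 and 9 without Rag1_control mouse 2, 3 or 4, and 6 and 9 without Rag2_control mouse 1 or 4), 965 to 1164 for WT_control against Rag2_control (965 without Rag2_control mouse 2) and 1314 to 1820 for WT_control against Rag1_control (1341 and 1353 without WT_control mouse 1 or 2, 1314 without Rag1_control mouse 4). The relatives called ranged from 22 to 32 in TRUC, 22 to 41 in DSS (22 without DSS mouse 8), 1 to 5 in DNBS (1 without WT_control mouse 1 or 4 or DNBS mouse 16, and 5 without DNBS mouse 11), 22 to 30 in IL10_blockade, 32 to 37 in TCT and 11 to 22 in antiCD40 (11 without Rag1_control mouse 4). They were 0 to 0, 12 to 18 and 13 to 16 in the 3 comparisons of untreated groups in the order above (14 without WT_control mouse 2 and 13 without Rag1_control mouse 3 in the last). At 3 counts or fewer a transcript was at the limit of this depth.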
